A study of Mus musculus with 2 samples.

Results

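Late-cycle cells were 505 of 1514 sorted mouse melanoma cells, a share of 33.4% with an exact 95% binomial interval of 30.98 to 35.8%. They were chosen by rule from single-cell counts. A barcode was kept as a cell with at least 5000 gene UMIs (unique molecular identifiers, a count of captured RNA molecules), at most 15% of them from mitochondrial genes, and a UMI count of its next-highest hashtag at least 3 times that of the third. A cell was late-cycle where Top2a, Mki67, Cenpf, Ube2c and Prc1 together gave at least 5 of every 10000 gene UMIs. The other 1009 cells are called the remaining cells. Late-cycle is the name of the rule and not a phase read for each cell. Of the 505 cells, 249 (49.3%) had at least 10 UMIs of replication-dependent histones per 10000, against 36 (3.57%) of remaining cells. Such histone messages are made while the genome is copied (S phase), so 33.4% is the share that passed the rule. Because gene counts of the same cells made the split, each difference in a transcript between late-cycle and remaining cells is given as a description, with no test.

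In a dividing cell the genome is copied in S phase, and the machinery for separating the copies is made in G2 and used in mitosis. Cyclin-dependent kinase 1 with cyclins A and B drives entry into mitosis. The anaphase-promoting complex then marks cyclins and other proteins for destruction so that the chromosomes part and the cell divides. Many of the transcripts peak late in the cycle, under the MuvB complex with B-Myb and FOXM1, whereas E2F factors act mainly around the entry into S phase.

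The cells came from 1 pool of 18 tumors of NMM, a mouse melanoma line with mutated NRAS, grown in Rag-/- mice, a strain that makes no mature T or B cells of its own. Per the labels, 6 tumors were Mix PBS, 6 were Mix + T and 6 were Ag-GAS + T, where T stands for exposure to T cells and PBS for the control. The sources used here do not give what Ag-GAS and Mix stand for, which T cells were used, the age of the mice or the number of clones in the line. All tumors were stained with TotalSeq-A hashtag antibodies, mixed at equal cell numbers and sorted for CFP+ cells, which the labels call bystander tumor cells, before the 10x Single Cell 3' assay. Each cell carried a pair of the 10 hashtags, and 18 of 45 possible pairs were seen, which were read here as 1 tumor each. That reading comes from the tags and not from the labels. The labels tie no hashtag to a condition, so the 3 conditions were not compared, and each pair is reported by its value.

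The 5 genes that defined the cells each have a known late-cycle role. Top2a encodes topoisomerase II alpha, which untangles DNA before the chromosomes part. Mki67 encodes Ki-67, which coats mitotic chromosomes. Cenpf encodes a large protein of the nuclear matrix and the kinetochore. Ube2c encodes the ubiquitin-conjugating enzyme that works with the anaphase-promoting complex, and Prc1 encodes a protein that bundles microtubules of the central spindle. In GENCODE M21 on GRCm38 the genes lie at chr11:98992943-99024189 on the minus strand (Top2a), chr7:135689784-135716361 on the minus strand (Mki67), chr1:189640606-189688086 on the minus strand (Cenpf), chr2:164769898-164778822 on the plus strand (Ube2c) and chr7:80294450-80316259 on the plus strand (Prc1).

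The promoters of these genes and of Ccnb1 (cyclin B1), which was not used to choose the cells, are shown because genes of this class are known to share short promoter elements. The RefSeq sequences on GRCm38.p6 run 5' to 3' on the gene's strand from 250 bases before the start site through the first 20 bases of the transcript. They come from chr11:99024170-99024439 (Top2a, minus), chr7:135716360-135716629 (Mki67, minus), chr1:189688067-189688336 (Cenpf, minus), chr2:164769679-164769948 (Ube2c, plus), chr7:80294226-80294495 (Prc1, plus, the entry nearer the gene of 2 in the table) and chr13:100786467-100786736 (Ccnb1, minus). Capitals mark TTTGAA or TTTAAA, the core of the cell cycle genes homology region bound by MuvB complexes, and CCAAT, the box bound by NF-Y, on either strand, so that a reverse match reads TTCAAA or ATTGG.
Top2a: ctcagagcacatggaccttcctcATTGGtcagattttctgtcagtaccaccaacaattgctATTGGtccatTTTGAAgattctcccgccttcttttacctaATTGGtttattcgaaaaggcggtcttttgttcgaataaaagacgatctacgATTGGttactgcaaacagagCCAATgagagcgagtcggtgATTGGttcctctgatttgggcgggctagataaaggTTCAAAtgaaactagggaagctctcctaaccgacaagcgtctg
Mki67: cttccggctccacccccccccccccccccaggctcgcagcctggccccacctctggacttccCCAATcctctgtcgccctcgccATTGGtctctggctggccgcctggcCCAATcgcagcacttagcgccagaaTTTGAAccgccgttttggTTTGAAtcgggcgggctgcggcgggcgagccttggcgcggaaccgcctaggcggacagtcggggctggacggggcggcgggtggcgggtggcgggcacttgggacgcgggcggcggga
Cenpf: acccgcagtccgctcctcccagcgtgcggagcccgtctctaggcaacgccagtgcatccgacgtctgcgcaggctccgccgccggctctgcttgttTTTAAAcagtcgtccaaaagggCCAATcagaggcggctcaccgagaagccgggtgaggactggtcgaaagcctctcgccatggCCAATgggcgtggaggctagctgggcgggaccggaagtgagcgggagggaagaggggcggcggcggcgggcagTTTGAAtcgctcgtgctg
Ube2c: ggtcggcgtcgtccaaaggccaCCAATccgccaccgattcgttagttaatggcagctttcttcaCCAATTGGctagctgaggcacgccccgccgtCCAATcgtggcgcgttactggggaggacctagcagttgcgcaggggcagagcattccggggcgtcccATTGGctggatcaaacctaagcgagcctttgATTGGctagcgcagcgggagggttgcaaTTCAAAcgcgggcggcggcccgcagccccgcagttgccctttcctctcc
Prc1: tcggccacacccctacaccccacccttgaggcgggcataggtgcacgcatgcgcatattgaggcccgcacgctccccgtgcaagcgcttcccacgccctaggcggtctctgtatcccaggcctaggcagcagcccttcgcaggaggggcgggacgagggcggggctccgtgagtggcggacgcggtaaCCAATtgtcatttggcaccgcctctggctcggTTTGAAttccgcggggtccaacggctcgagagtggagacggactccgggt
Ccnb1: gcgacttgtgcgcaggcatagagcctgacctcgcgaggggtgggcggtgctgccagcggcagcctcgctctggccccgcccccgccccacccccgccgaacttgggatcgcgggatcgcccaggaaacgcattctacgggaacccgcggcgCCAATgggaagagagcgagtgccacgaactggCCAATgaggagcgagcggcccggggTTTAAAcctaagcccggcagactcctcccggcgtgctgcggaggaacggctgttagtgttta
All 6 promoters held both kinds of match. A homology match lay close to the start site in Top2a (23 bases before it), Ube2c (29), Prc1 (30) and Ccnb1 (42), counted at the first base of the match as printed, with a CCAAT box upstream at 58, 57, 62 and 67 bases. In Mki67 the homology matches lay 116 and 98 bases before the start site, and Cenpf held TTTAAA 154 bases before it and TTTGAA at base 3 of the transcript. Forward and reverse CCAAT boxes overlap once in Ube2c, in CCAATTGG.

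Over all 32851 promoters of the table, searched across 300 bases each, 27.6% held TTTGAA or TTTAAA, 37.4% held CCAAT and 10.7% held both. Among genes with enough UMIs to be compared, 9486 promoters could be matched (7444 of 9213 genes), and 7.59% held both. Among genes at least 2-fold higher in late-cycle cells, the 236 matched promoters (210 of 260 genes) held both in 39.0%. The shares of TTTGAA or TTTAAA were 53.4% in these and 19.4% in all compared genes, and those of CCAAT were 65.3% and 37.9%. Promoters of replication licensing genes held CCAAT in 68% and both in 24%. The 11 promoters of compared histone genes held CCAAT in 90.9% and both in 72.7%. Both of these sets share genes with the 260, and the matches were thus not particular to genes of mitosis. The E2F motifs TTTCCCGC, TTTCGCGC, TTTGCCGC and TTTGGCGC, searched on both strands, were in 11.0% of the 236 promoters, 4.20% of those of all compared genes and 48% of the 25 promoters of replication licensing genes (22 of 26 genes matched). None of the 6 table entries of the 5 defining genes held an E2F match. These are matches of letters and were not tested as sites.

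The defining genes come first, as a description of the choice. Levels are given as CPM, the UMIs of a gene per 1000000 gene UMIs summed over a group of cells. CPM is thus a share, and a lower CPM need not mean fewer UMIs per cell where cells differ in total UMIs. Because 3' counting gives 1 tag per molecule, CPM does not scale with transcript length. Top2a stood at 556 CPM in late-cycle cells and 42.0 in remaining cells, with a range over 15 hashtag pairs that had at least 10 cells on each side of 433 to 702 (median 569) against 8.77 to 52.0 (median 42.2). Ube2c stood at 599 CPM against 43.6, with pair values of 464 to 865 (median 596) and 20.8 to 55.2 (median 42.4). Cenpf, at 299 against 12.1 CPM, ran from 230 to 440 (median 297) over the pairs of late-cycle cells and from 6.46 to 27.8 (median 10.8) over those of remaining cells. These 3 genes had no overlap between the late-cycle and remaining values of any pair. Mki67 stood at 177 against 11.0 CPM, with 119 to 288 (median 184) in late-cycle and 3.59 to 24.2 (median 11.2) in remaining cells. Prc1 stood at 188 against 6.09 CPM, with 139 to 293 (median 201) and 3.05 to 10.8 (median 5.56). Both were likewise separate in all 15 pairs, which the choice of cells by these genes fixes in large part.

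Ube2c gave 32.9% of the UMIs that the 5 genes had in late-cycle cells, Top2a 30.6%, Cenpf 16.4%, Prc1 10.3% and Mki67 9.73%. These are shares of summed UMIs and do not show which genes carried single cells past the limit. The 5 genes together gave a median of 13.2 per 10000 UMIs in late-cycle cells (range 5.00 to 75.3) and 0.561 in remaining cells. All 5 genes had a UMI in 441 late-cycle cells (87.3%), and 4 of the 5 in 46, 3 in 13, 2 in 4 and a lone gene in 1 cell. Among remaining cells all 5 were seen in 37 (3.67%) and none in 234 (23.2%). The rule summed these same UMIs, so the counts of genes seen together describe the choice and are not read as a result.

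Free RNA bears on such counts. Barcodes under 800 UMIs, 18473 of the 20917 in the matrix, were taken as droplets with free RNA only, and in them the 5 genes gave 6.32 per 10000 UMIs, above the limit of 5 used for cells. Top2a had at least 1 UMI in 97.4% of late-cycle and 50.1% of remaining cells, and in 95.6% and 37.1% after each cell was thinned to 20000 UMIs, which left out 27 late-cycle and 106 remaining cells. Mki67 had a UMI in 95.4% and 22.4% of cells, and in 90.6% and 13.1% after thinning. Prc1 had a UMI in 93.1% and 17.7%, thinned 80.1% and 9.52%. Free RNA may give single UMIs to remaining cells, and its part in their shares was not tested. Late mitosis genes that the rule did not use gave the same picture and bear on the label. Ccnb1 had a UMI in 91.3% of late-cycle and 19.5% of remaining cells, Plk1 in 88.3% and 15.6%, Cdc20 in 93.1% and 29.1%, Cenpa in 96.6% and 51.6% and Nek2, a centrosome kinase, in 65.3% and 6.34%. After thinning, the shares were 75.3% and 12.6% for Ccnb1, 74.7% and 8.19% for Plk1 and 82.0% and 20.3% for Cdc20. They were 93.9% and 40.6% for Cenpa and 38.1% and 3.10% for Nek2. No cell type in the sort lacks these genes for certain, so no background share was taken from another cell type.

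The 45 cells with 5 to 6 defining UMIs per 10000 had 1029.98 CPM of 12 late mitosis genes that the rule did not use (Ccnb1, Ccnb2, Cdc20, Plk1, Aurka, Cenpe, Cenpa, Hmmr, Nek2, Kif20a, Tpx2 and Bub1), and the 48 cells with 4 to 5 per 10000 had 829. Replication-dependent histones stood at 666 and 698 CPM, DNA synthesis genes at 3131 and 2859.9, and median UMIs per cell at 57689 and 52209. The values on both sides of the limit lay close together, so late-cycle here means a range of a score and not a separate cell type.

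The share of late-cycle cells was spread over all hashtag pairs. It ran from 22.2% in HTO2 with HTO4 (6 of 27 cells, exact 95% interval 8.62 to 42.3%) to 46.7% in HTO2 with HTO5 (14 of 30, 28.3 to 65.7%), with a median of 33.1% over 18 pairs of 21 to 258 cells. The largest pair, HTO2 with HTO8, held 87 of 258 (33.7%, 28.0 to 39.8%). The next pairs by size were HTO6 with HTO7, at 62 of 163 (38.0%), HTO7 with HTO10, at 46 of 142 (32.4%), HTO3 with HTO9, at 52 of 140 (37.1%), HTO8 with HTO10, at 35 of 122 (28.7%), and HTO1 with HTO9, at 33 of 110 (30%). Among pairs under 100 cells, the lowest after HTO2 with HTO4 was HTO4 with HTO9 at 26.0%, and the highest after HTO2 with HTO5 was HTO1 with HTO2 at 38.2%. The exact interval of every pair held the pooled 33.4%, so at these cell numbers no pair was set apart from the pooled share by its own interval. The intervals cover counting error only.

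**Figure D1:**
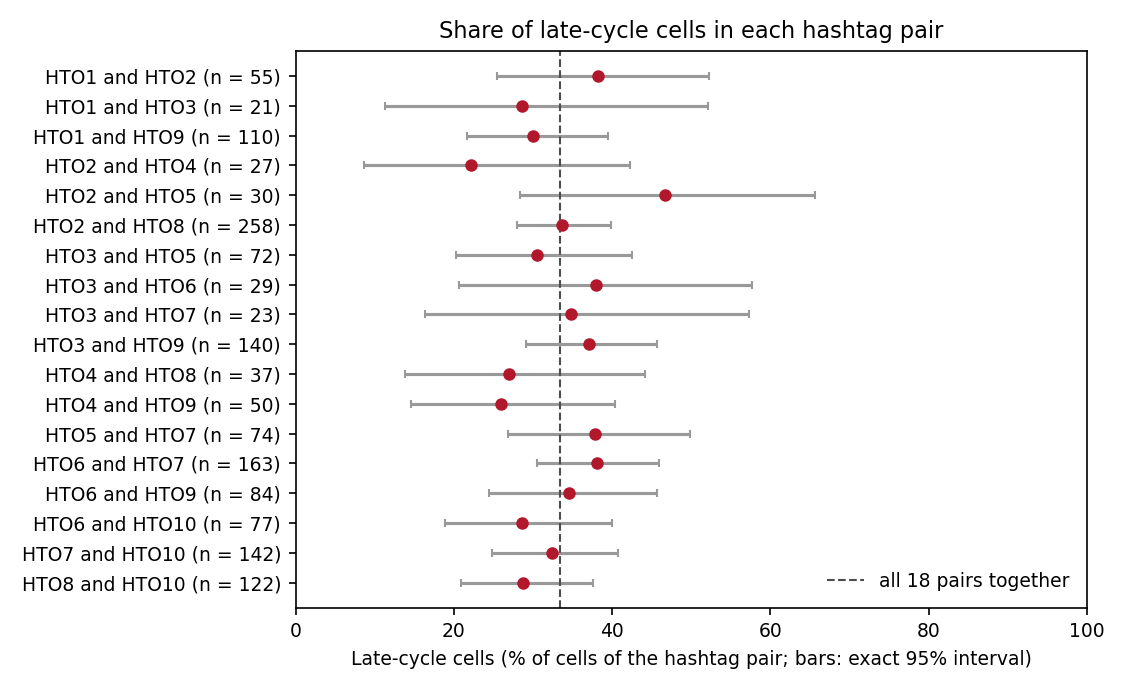
Share of late-cycle cells in each hashtag pair (percent of the cells of the pair, exact 95% binomial intervals), with the pooled share of 33.4% as a line. The pairs run from 22.2% to 46.7%, and every interval crosses the line.

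Late-cycle cells had more UMIs per barcode. Their median was 62131 gene UMIs (quartiles 47676 and 76846) against 37841 in remaining cells, and the median of late-cycle cells was the higher one in all 18 pairs, by 1.01 to 2.20 times (median 1.69). The smallest ratio was in HTO3 with HTO7, at 46976 against 46507 UMIs over 23 cells, and the largest in HTO3 with HTO6, at 66391 against 30243.5 over 29 cells. Genes per cell had a median of 6912 against 5703, and 4486 against 4311 once all cells were thinned to 20000 UMIs, so most of the gap in genes went with depth. The mitochondrial share had a median of 2.60% and 2.64%. Doublets would also raise UMIs. The hashtag ratio is meant to remove droplets that hold cells of different pairs, but at a ratio of 3 some of these may pass. No doublet caller was run, and droplets with 2 cells of 1 pair cannot be seen. A next-highest hashtag at least 10 times the third, a stricter mark of a clean pair, was found in 80% of late-cycle and 89.6% of remaining cells. The part of doublets in the higher UMI counts was not tested.

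**Figure D2:**
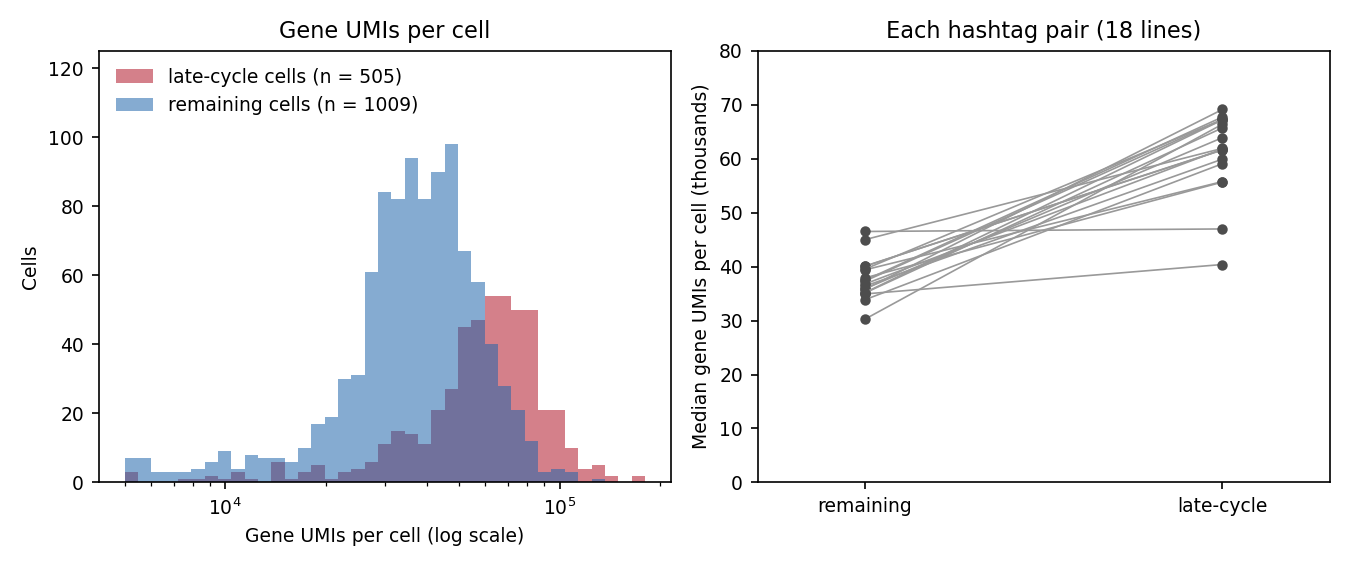
Left, number of cells by gene UMIs per cell (log scale) for 505 late-cycle and 1009 remaining cells. Right, median gene UMIs per cell (axis in units of 1000) of remaining and late-cycle cells in each of 18 hashtag pairs, 1 line per pair, where every line goes up, by 1.01 to 2.20 times.

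Over the whole transcriptome, 9213 genes reached 5 CPM in the cells together. At a 2-fold ratio of CPM with 5 CPM added to both sides, 260 genes (2.82% of those compared) were higher in late-cycle cells and 101 (1.1%) were lower. The median log2 ratio of all compared genes was 0.03. Because the rule used this contrast, the percentages are given as background and nothing is read from them. In 15 of 15 pairs the late-cycle value was the higher one for 965 genes (10.5%) and the lower one for 463 (5.03%). Of the 260 genes, 259 (2.81% of those compared) were higher in at least 14 of 15 pairs, and of the 101 genes, 84 (0.912%) were lower in as many. The lowest pair of late-cycle cells stood above the highest pair of remaining cells for 455 genes (4.94%) and the highest below the lowest for 67 (0.727%). Of the 260 genes, 155 belong to the lists of genes described next and 105 do not. Remaining cells were also split by the summed level of 12 genes of replication licensing and G1/S (Mcm2 to Mcm7, Gins2, Ung, Cdc6, Ccne1, Ccne2 and Pcna). The 253 cells in the top 25%, at 4.97 or more per 10000 UMIs, are called G1/S-rich, and 140 genes (1.52%) were 2-fold higher and 7 (0.076%) lower in late-cycle cells than in these. Those 7 were Ung, Igfbp5, Mgp, Cxcl15, H2-Ab1, Rhox5 and Gm49014, named here after their values were seen.

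The kinases and cyclins of mitotic entry were higher in late-cycle cells in 17 of 18 genes compared, with none lower and a median log2 ratio of 1.90. Their summed level was 2095 CPM against 489 in remaining cells and 755 in G1/S-rich cells, and was 3.45 to 6.83 times higher within each of the 15 pairs. Cdk1, the kinase that drives entry into mitosis, stood at 315 against 43.8 CPM. Its partner Ccnb1 stood at 142 against 9.71 CPM, with 108 to 190 (median 142) over the pairs of late-cycle cells and 5.36 to 13.8 (median 8.55) over those of remaining cells. The other partner, Ccna2 (cyclin A2), stood at 115 against 9.76 CPM. With 5 CPM added, the ratios were 6.56 for Cdk1, 9.98 for Ccnb1 and 8.14 for Ccna2. Plk1, a kinase of centrosome maturation and the spindle, stood at 116 against 7.01 CPM (91.1 to 177, median 116, against 1.46 to 13.0, median 5.92). Aurka (Aurora A, of the spindle poles) stood at 85.2 against 5.76 CPM. Cks2, a small subunit of the kinase complex, stood at 372 against 66.1 CPM. The phosphatase genes Cdc25b and Cdc25c, which switch the kinase on, stood at 31.1 and 21.2 against 8.26 and 2.94 CPM, and Wee1, which holds it off, at 19.6 against 6.54, so activators and inhibitor were higher alike. Ccnb2 (cyclin B2) was higher in 14 of 15 pairs, at 105 against 40.3 CPM, with overlapping ranges. Melk, a kinase common in dividing cells, was the 1 gene of the group under 2-fold, at 88.9 against 72.5 CPM.

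Of the anaphase-promoting complex and its regulators, 4 of 20 genes were 2-fold higher (none lower, median log2 ratio 0.34), and the sum was 2065 against 1289 CPM, 1.26 to 1.86 times higher over the pairs. These were Cdc20, Fbxo5, Fzr1 and Espl1, and no core subunit was among them. Cdc20, the activator used in mitosis, stood at 171 against 24.1 CPM, with 84.7 to 259 (median 178) against 8.61 to 40.4 (median 24.3) over the pairs. Fbxo5 (Emi1), an inhibitor of the complex, stood at 64.6 against 9.66 CPM, and Fzr1 (Cdh1), the activator used after mitosis and in G1, at 47.4 against 18.2. Espl1 encodes separase, which cuts cohesin, and stood at 13.0 against 0.873 CPM. Ube2s, which extends ubiquitin chains on the complex's targets, stood at 841 against 422 CPM, just under 2-fold with 5 CPM added (1.98). Pttg1 (securin) stood at 43.0 against 41.0 CPM. The core subunits ran from 0.90 times (Anapc13) to 1.85 times (Anapc15) the remaining level, and none reached 2-fold.

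Spindle checkpoint genes, which hold back anaphase until chromosomes are attached, were higher in 6 of 9 (none lower, median log2 ratio 1.85), with a sum of 507 against 165 CPM and 2.61 to 4.31 times over the pairs. Bub1 and Bub1b, kinase and kinase-like parts of the checkpoint, stood at 63.5 and 64.7 against 8.41 and 7.74 CPM. Mad2l1, which binds Cdc20, stood at 58.1 against 12.6 CPM, and the kinase Ttk (Mps1) at 27.6 against 2.05. The 3 genes under 2-fold were Bub3 (1.87 times), Mad1l1 (1.71) and Zw10 (1.58).

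Centromere and kinetochore genes were higher in 26 of 28 (none lower, median log2 ratio 1.72), at a sum of 1661 against 317 CPM and 3.31 to 7.66 times over the pairs. Cenpa, the histone H3 variant that marks centromeres, stood at 298 against 64.0 CPM. Cenpe, a kinesin of the kinetochore, stood at 199 against 17.6 CPM (169 to 247, median 209, against 6.46 to 71.0, median 18.1), and Knl1, a scaffold of the kinetochore, at 94.2 against 7.31. Sgo2a, a shugoshin that protects centromeric cohesin, stood at 108 against 12.7 CPM, and Ndc80, which grips the microtubule, at 49.6 against 3.72. The inner plate genes Cenpc1 (1.48 times) and Cenpt (1.52 times) were the members under 2-fold.

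Spindle motors and microtubule proteins were higher in 25 of 28 (none lower, median log2 ratio 2.06), at a sum of 5121 against 1739 CPM. Nusap1, which bundles spindle microtubules, stood at 89.6 against 1.87 CPM (52.6 to 161, median 88.8, against 0 to 4.76, median 1.5). Kif11, the motor that pushes the poles apart, stood at 86.2 against 2.99 CPM (53.1 to 139, median 91.1, against 0.67 to 5.32, median 2.96). Both were separate in all 15 pairs and over 11 times higher with 5 CPM added. Tpx2, an activator of Aurora A, stood at 175 against 18.9 CPM, Hmmr, a spindle assembly factor, at 166 against 17.3, Aspm, of the spindle poles, at 55 against 2.1, and Kif2c, which takes microtubules apart at the centromere, at 59.2 against 3.52. The motor Kif20b stood at 105 against 8.16 CPM and the spindle protein gene Ckap2l at 52.5 against 2.67. The tubulins were nearer their remaining level. Tuba1b stood at 766 against 298 CPM, Tubb4b at 597 against 171 and Tubb5 at 1617 against 826, where the last was 1.95 times higher. Stmn1, which binds tubulin dimers, stood at 346 against 109 CPM. Numa1 (1.21 times) and Tubb2a (1.63 times) were the other members under 2-fold.

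All 13 genes of the chromosomal passenger complex and cytokinesis were higher (median log2 ratio 2.55). Their sum of 1309 against 152 CPM was 8.64 times higher, and 5.45 to 18.3 times over the pairs. The log2 ratio of that sum, 3.11, was 2.32 with the limit at 10 per 10000 and 3.71 at 3. Aurkb (Aurora B), the kinase of the complex, stood at 86.5 against 4.09 CPM (65.1 to 113, median 86.0, against 1.43 to 7.14, median 4.07). Its partner Birc5 (survivin) stood at 293 against 34.1 CPM (241 to 349, median 297, against 13.8 to 71.0, median 26.6). The other subunits Cdca8 (borealin) and Incenp stood at 164 and 92.6 against 14.7 and 8.73 CPM, so the 4 subunits were each above 7 times their remaining level. Kif23, the motor of the central spindle, stood at 75.4 against 4.17 CPM, its partner Racgap1 at 91.3 against 13.4, and Ect2, which they recruit to start the furrow, at 51.9 against 4.72. Anln (anillin), a scaffold of the contractile ring, stood at 184 against 30.8 CPM, and Cep55, of the last step of separation, at 63.3 against 4.87.

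Condensin and cohesin genes were higher in 10 of 15 (none lower, median log2 ratio 1.66), at 1561 against 624 CPM and 2.14 to 2.97 times over the pairs. The condensin genes Smc2, Smc4 and Ncapg, which compact mitotic chromosomes, stood at 231, 307 and 67.1 against 41.2, 76.4 and 8.13 CPM. Esco2, which acetylates cohesin in S phase, stood at 44.1 against 3.12 CPM. The cohesin ring genes were nearer their remaining level: Smc1a, Smc3, Stag1 and Stag2 were 1.77, 1.42, 1.23 and 1.09 times higher, and of the ring Rad21 alone passed 2-fold, at 144 against 61.7 CPM.

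Among late-cycle transcription factors and MuvB genes, 5 of 9 were higher (none lower, median log2 ratio 1.29), at 369 against 221 CPM. Foxm1 stood at 26.8 against 4.19 CPM and Mybl2 (B-Myb) at 26.2 against 6.09, both known activators of late-cycle genes, and E2f8, a known repressor of E2F targets, at 44.0 against 14.7. The chromatin proteins were higher in 7 of 17 (none lower, median log2 ratio 0.76), at 13312 against 7971 CPM. Hmgb2 stood at 996 against 209 CPM, the histone variant H2afx at 213 against 44.2, the variant H2afz at 1839.7 against 793, and Lmnb1 (lamin B1) at 141 against 47.8.

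Outside the lists, the gene with the highest ratio was Pimreg, at 58.8 against 3.99 CPM, followed by Depdc1a at 35.3 against 1.57, Cdca2 at 37.7 against 2.22, Pclaf at 381 against 66.0 and Gas2l3 at 27.9 against 1.20. Cdca2 (Repo-Man) is known as a phosphatase subunit on anaphase chromosomes, and Pclaf as a partner of PCNA. Plk4, the kinase of centriole copying, stood at 78.7 against 15.3 CPM, and Trip13, which takes apart the checkpoint complex, at 62.5 against 12.4. These genes were named after their values were seen.

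**Figure D3:**
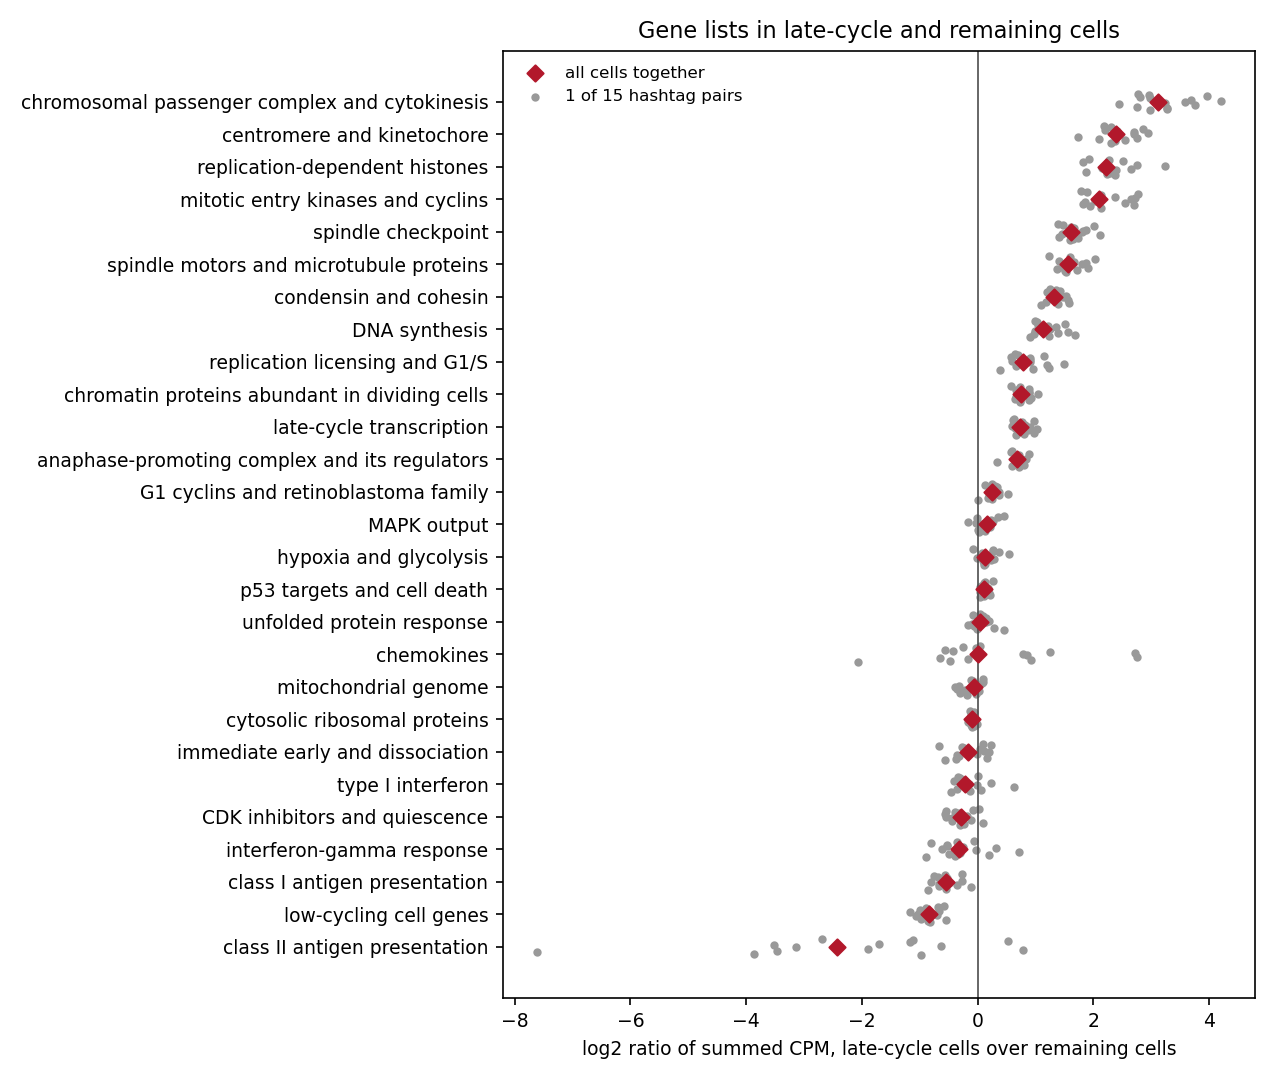
Log2 ratio of summed CPM, late-cycle over remaining cells, for 27 gene lists that exclude the 5 defining genes, with all cells together (diamonds) and each of 15 hashtag pairs (points). The mitotic lists lie right of 0 in every pair, led by the chromosomal passenger complex at 8.64 times, and the low-cycling and class I lists lie left of 0 in every pair.

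Replication genes are given beside all remaining cells and beside G1/S-rich cells. Licensing and G1/S genes were 2-fold higher in late-cycle cells in 6 of 24 (none lower, median log2 ratio 0.60), at a sum of 1250.3 against 725 CPM in all remaining cells, and higher in 15 of 15 pairs by 1.3 to 2.80 times. Against G1/S-rich cells, whose choice rests on several of these genes, the sum was below the 1538 CPM found there, and in the other 756 remaining cells it was 333. Mcm10, which starts the helicase, stood at 31.1 against 8.41 CPM and its cofactor Cdc45 at 34.6 against 9.41. Mcm5, of the helicase itself, stood at 77.9 CPM in late-cycle, 82.8 in G1/S-rich and 32.9 in all remaining cells. Cdc6, which loads the helicase, had 23.6, 41.1 and 14.02 CPM in these groups, Ccne1 (cyclin E1) at 24.7, 51.1 and 20.1, and Ung, a uracil glycosylase known to peak at G1/S, at 6.002, 32.2 and 12.5. Mcm5, Cdc6, Ccne1 and Ung are among the 12 genes that chose G1/S-rich cells. Their higher level there follows from the choice, and no order of cells is read from it. Against all remaining cells, which include the G1/S-rich ones, Mcm5, Cdc6 and Ccne1 were higher in late-cycle cells and Ung was lower.

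DNA synthesis genes were 2-fold higher in 19 of 36 (none lower, median log2 ratio 1.13), at 2990.2 against 1366 CPM, 1.86 to 3.20 times over the pairs, with 2512 in G1/S-rich and 815 in other remaining cells. Rrm2, of ribonucleotide reductase, stood at 149 CPM in late-cycle, 96.7 in G1/S-rich and 35.2 in all remaining cells. Tk1 and Tyms, which make thymidine nucleotides, stood at 105 and 134 against 23.3 and 42.5 CPM in remaining cells. Pcna, the sliding clamp, stood at 174 CPM in late-cycle, 176 in G1/S-rich and 89.6 in all remaining cells. Rrm2 was thus higher in late-cycle than in G1/S-rich cells, and Pcna was nearly level between them.

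Histone genes of the replication-dependent kind, whose messages are made in S phase and mostly lack a poly(A) tail, were compared in 13 of 67 cases, as 54 fell below 5 CPM, and a poly(A)-primed assay sees only part of them. Of the 13, 10 were higher and 1 was lower, with a median log2 ratio of 1.73, and the sum was 1205.1 against 258 CPM, 3.51 to 9.41 times over the pairs. G1/S-rich cells had 291 CPM and other remaining cells 242, so the level set late-cycle cells apart from both. Hist1h1b, a linker histone, stood at 381 against 22.9 CPM (264 to 654, median 394, against 1.46 to 63.9, median 20.0 over the pairs), and 61.3 in G1/S-rich cells. Hist1h2ap stood at 156 against 11.7 CPM, Hist1h2ae at 158 against 18.1 and Hist1h1e at 154 against 23.1. Reads of such near-identical genes can be split by the counting, so the level of a single histone gene is uncertain. Hist1h2bc was the exception, lower in 15 of 15 pairs at 44.2 against 100.1 CPM, and Hist1h1c was 1.52 times higher.

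Single late-cycle cells were spread over a wide range of histone levels. In ranges drawn after seeing the values, 249 late-cycle cells (49.3%) had at least 10 histone UMIs per 10000, 110 (21.8%) had 3 to 10 and 146 (28.9%) had fewer than 3, against 36 (3.57%), 213 (21.1%) and 760 (75.3%) of remaining cells. The median level of the 12 late mitosis genes in these late-cycle cells ran the other way, at 8.60, 14.7 and 24.7 per 10000. The defining genes had medians of 13.3, 11.1 and 15.5 per 10000 and median UMIs per cell were 65151, 54537.5 and 62553.5, so neither followed the histone level in order. The histone-rich cells had more Pcna (221 CPM against 97.3 in the histone-poor cells) and Top2a (624 against 505), and less Ccnb1 (93.9 against 233) and Cenpf (212 against 472). Cells of both kinds thus passed the rule, with transcripts of DNA replication leading in the histone-rich and those of mitosis in the histone-poor. In the largest pair, HTO2 with HTO8, 37 of 87 late-cycle cells (42.5%) were histone-rich, and over the 18 pairs of 6 to 87 late-cycle cells the share ran from 30% to 83.3%.

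**Figure D4:**
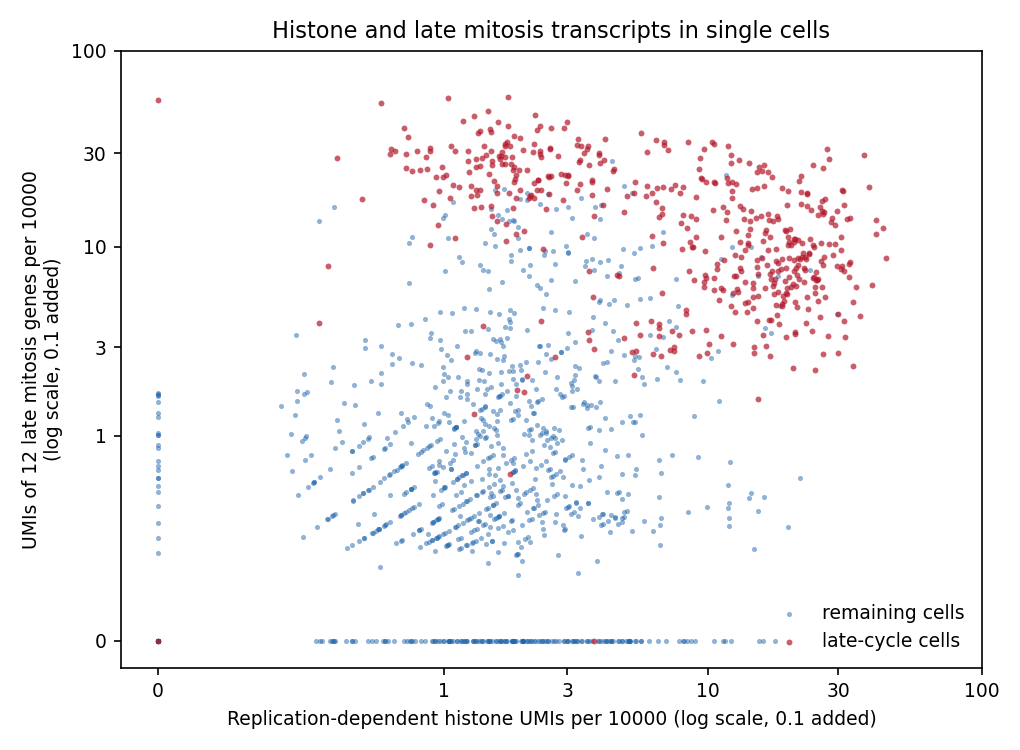
Replication-dependent histone genes (x axis) against 12 late mitosis genes (y axis), both in UMIs per 10000 gene UMIs with 0.1 added on log scales, for 505 late-cycle and 1009 remaining cells, 1 point per cell. The late-cycle cells extend from a range with at least 10 histone UMIs (249 cells) to one with fewer than 3 and higher late mitosis levels (146 cells).

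Late-cycle cells were not alike. They were ordered by the 12 late mitosis genes and cut into 3 parts of 169, 168 and 168 cells, holding 0 to 8.36, 8.46 to 19.8 and 19.9 to 58.4 of these UMIs per 10000. The parts are ranges of a score. Median UMIs per cell were 59749, 65177.5 and 60978.5, so depth did not follow the order. The comparison has no test, and percentages of genes past 2-fold between the highest and the lowest part were 0.967% higher (88 of 9103 genes) and 0.692% lower (63), given as background.

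Histone transcripts stood at 1652 CPM in the lowest, 1450.4 in the middle and 532 in the highest part, and were lower in the highest part in all 11 pairs that had at least 5 cells in both end parts. Licensing genes stood at 1854, 1221 and 712 CPM and DNA synthesis genes at 3908, 3013 and 2102, and each list was lower in the highest part in 11 of 11 pairs. Genes of the passenger complex and cytokinesis went the other way, at 797, 1245 and 1857 CPM. The lowest part thus had the most S-phase transcripts and the highest part the most cytokinesis transcripts. Only cells that passed the rule were ordered, and how far that choice made this contrast was not tested. Licensing genes in the lowest part were above the 1538 CPM of G1/S-rich cells, so the name late-cycle also covers cells rich in S-phase transcripts. Hist1h1b stood at 559, 469.5 and 122 CPM, Pcna at 274, 167 and 86.3, Rrm2 at 215, 144 and 92.4, and Ccne2 (cyclin E2) at 24.8, 8.08 and 1.51. Cdc6 went from 49.6 CPM in the lowest to 5.47 in the highest part and Mcm6 from 157 to 48.3. Among genes with the opposite order, Aspm went from 11.2 to 116 CPM, Nusap1 from 21.2 to 177, Gas2l3, which links actin and microtubules, from 4.31 to 64.2, and Cdkn3, a phosphatase that acts on cyclin-dependent kinases, from 5.21 to 72.6. Each of these was the same way in 11 of 11 pairs.

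The defining genes were unequal along this order. Cenpf stood at 105, 228 and 555 CPM from the lowest to the highest part, Ube2c at 195, 527 and 1054, and Prc1 at 72.2, 154 and 332. Top2a differed less, at 461, 538 and 664 CPM, and Mki67 stood at 101, 163 and 262. In the lowest part Top2a was thus the most abundant of the 5 genes, and in the highest part Ube2c was. The rule chose the cells by the sum of these 5 genes. A cell with few UMIs of some of them had to reach the limit through the others. How far the choice made these differences was not tested. Hmgb2 stood at 753, 994 and 1227 CPM, Ccna2 at 74.5, 113 and 156, Cdk1 at 240.4, 293 and 408, and Birc5 at 197, 279 and 398. Ccnd1 (cyclin D1), which acts in G1, stood at 641, 738 and 668 CPM with no order.

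**Figure D5:**
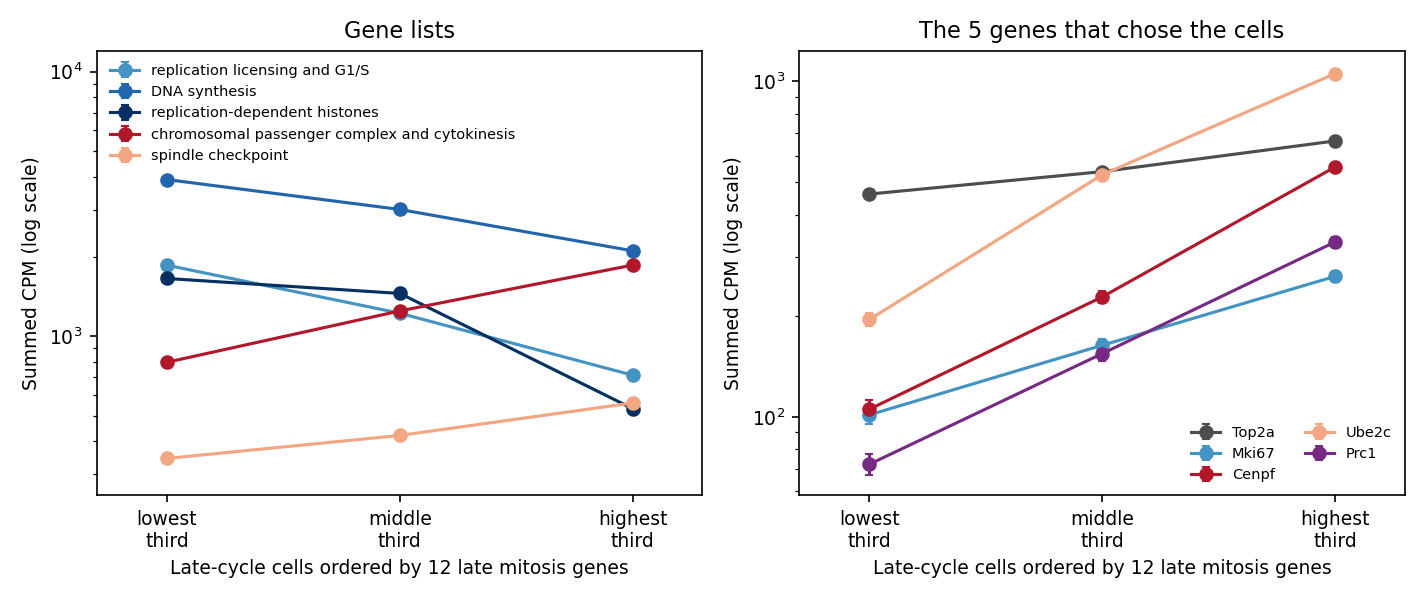
Levels (CPM, log scale) of gene lists (left) and the 5 defining genes (right) in 3 nearly equal parts of the late-cycle cells, ordered by 12 late mitosis genes, with exact 95% Poisson intervals as bars. Histone, licensing and DNA synthesis levels go down from the lowest to the highest part (histones 1652 to 532 CPM), and passenger complex genes go up (797 to 1857 CPM).

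Over 478 late-cycle cells thinned to 20000 UMIs, the log of the summed late mitosis UMIs had a Pearson correlation of 0.60 with the defining genes, -0.63 with licensing genes, -0.56 with DNA synthesis genes and -0.43 with histones. Correlations with interferon-gamma genes (-0.11), class I genes (-0.09) and low-cycling genes (0.08) were small. Among the defining genes, Ube2c and Prc1 had 0.65 and Cenpf and Ube2c 0.60, whereas Mki67 and Ube2c had 0.26 and Top2a and Cenpf 0.27. The UMIs were taken as the log of the UMI count plus 1, and the cells share 1 library and a fixed depth. The cells were also chosen by the sum of the defining genes, so the values describe these cells only.

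G1 regulators are given beside the shares over all compared genes, 2.82% higher and 1.1% lower. Of the G1 cyclins and retinoblastoma family 1 of 12 genes was higher and none lower (median log2 ratio 0.21), at 1519 against 1284 CPM, and higher in 15 of 15 pairs. That gene was Rbl1 (p107), at 27.5 against 11.2 CPM. Ccnd1 stood at 684 against 511 CPM and Ccnd2 (cyclin D2) at 126 against 158, the latter lower in 15 of 15 pairs. Of 21 genes of CDK inhibitors and quiescence 1 was higher and 2 were lower (median log2 ratio -0.27), at 954 against 1166 CPM. Cdkn2d (p19) was the higher one, at 34.1 against 7.96 CPM and in 15 of 15 pairs. Mxd4, an antagonist of Myc, was lower at 9.75 against 43.1 CPM (3.91 to 15.4, median 9.93, against 28.5 to 76.9, median 45.7), and Gadd45a, a stress gene, at 19.3 against 45.5. Gas1, named for growth arrest, stood at 76.2 against 154 CPM, 0.51 times. Cdkn1a (p21) stood at 83.3 against 72.4 CPM and Cdkn1b (p27) at 69.3 against 79.6. Within late-cycle cells Cdkn1a was highest in the lowest part, at 119, 63.6 and 69.8 CPM.

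Genes of low-cycling cells, mostly of the extracellular matrix, had the most members past 2-fold on the lower side, with 12 of 19 lower and none higher (median log2 ratio -1.25). Their sum was 4014 CPM in late-cycle cells, 7204 in remaining cells, 4650.01 in G1/S-rich cells and 8433 in the others, and was lower in 15 of 15 pairs. That list was drawn up from earlier results of these cells, so its direction is no independent evidence. Mgp (matrix Gla protein) stood at 20.1 against 185 CPM, with 0 to 153 (median 4.08) over the pairs of late-cycle cells and 10.8 to 735 (median 170.2) over those of remaining cells. Prg4 (lubricin) stood at 4.76 against 64.1 CPM and Dcn (decorin) at 25.2 against 103. Itga1, an integrin for collagen, stood at 17.1 against 71.0 CPM and Apod, a lipocalin, at 78.3 against 263 (1.304 to 184, median 64.9, against 60.3 to 508, median 126), with 64.6 in G1/S-rich cells. Fcgrt, the neonatal Fc receptor, stood at 6.54 against 40.8 CPM and was separate in all 15 pairs. The wide pair ranges of Mgp and Apod overlapped between late-cycle and remaining cells. Collagen and decorin genes are also fibroblast markers. The 7 fibroblast markers summed to 855 CPM in late-cycle cells, 1587 in remaining cells and 1204 in free RNA, led by Col3a1 at 436 against 1041 with Pdpn at 378 against 342, and the part of such RNA in these differences was not tested.

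Class I antigen presentation had no gene past 2-fold among 17, but its sum was lower in late-cycle cells in 15 of 15 pairs, at 8152 against 11943 CPM (median log2 ratio -0.42). This is a lower share of the UMIs. Late-cycle cells had more gene UMIs each (median 62131 against 37841 in remaining cells), and class I UMIs per cell were not compared. G1/S-rich cells stood at 9253 and other remaining cells at 13238. B2m, the light chain, stood at 2071 against 3241 CPM, lower in 15 of 15 pairs, and the heavy chain genes H2-D1 and H2-K1 at 1443 and 1365 against 2236 and 2174. Tap1, the peptide transporter, was nearer its remaining level, at 143 against 162 CPM. Class II genes were lower in 5 of 6, at 49.5 against 267 CPM (median log2 ratio -1.79), in 12 of 15 pairs with 2 higher. The log2 ratio of their sum, -2.43, was -1.80 as the median over pairs. Cd74, the invariant chain, stood at 25.2 against 145 CPM, with pair values from 0 to 97.4 and from 0 to 351 that overlapped.

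Over all compared genes 2.82% were 2-fold higher and 1.1% lower, so a count of 0 in an interferon list says little. Interferon-gamma response genes had 0 of 20 past 2-fold and stood at 3074 against 3855 CPM, lower in 12 of 15 pairs (median log2 ratio -0.33). Over the pairs their sum ran from 0.54 to 1.64 times the remaining level. Iigp1, an immunity-related GTPase, stood at 667 against 886 CPM. Type I interferon genes had 0 of 23 past 2-fold and stood at 9275 against 10788 CPM, lower in 11 of 15 pairs (median log2 ratio -0.19). Isg15, a ubiquitin-like protein, stood at 1859.9 against 2167 CPM, while Oasl1 was higher, at 119 against 72.6. Chemokine genes had 0 of 6 past 2-fold, 2912 against 2886 CPM, with 7 pairs higher and 8 lower, and their median log2 ratio of -0.42 had the opposite sign of their sum. Cxcl10, which draws T cells, stood at 1744 against 1241 CPM and Ccl2, which draws monocytes, at 752 against 1050.1. The sign of the chemokine sum changed in 6 of 12 alternative settings, so no direction is given for it.

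The remaining lists had no gene past 2-fold, which says little where all compared genes had 2.82% higher and 1.1% lower. Summed levels were 1.12 times the remaining level for MAPK output, 1.09 for hypoxia and glycolysis, 1.08 for p53 targets and cell death, 1.03 for the unfolded protein response (its sign changed in 1 of 12 settings), 0.96 for the mitochondrial genome, 0.94 for ribosomal proteins and 0.89 for immediate early genes. The medians of the genes had the other sign for MAPK output (-0.06) and for hypoxia and glycolysis (-0.02). Ribosomal proteins were lower in 15 of 15 pairs, at 243246 against 259015 CPM, and p53 targets were higher in 15 of 15. Within MAPK output, Myc stood at 211 against 139 CPM (higher in 11 pairs) and Spry4, a feedback inhibitor, at 31.4 against 61.5.

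Fibroblast markers aside, markers of other cells were low in both groups. Melanoma markers summed to 94.3 CPM in late-cycle and 79.2 in remaining cells (62.4 in free RNA), led by Slc24a5 (60.5 against 37.8) and Pax3 (29.4 against 35.9). In late-cycle cells 4 of these 10 markers, Tyr, Tyrp1, Mlana and Sox10, had no UMI. Dct and Pmel were under 1 CPM and Mitf stood at 3.84 CPM. In remaining cells 2 of the 10 had no UMI. Of the 505 late-cycle cells, 69 had 3 or more of the 10 melanoma markers and 245 had 3 or more of the 7 fibroblast markers. T cell markers stood at 117 and 91.7 CPM, almost all from Trbc2, and 6 of 9, Cd3e, Cd3d, Cd3g, Cd8a, Cd8b1 and Cd4, had no UMI in late-cycle cells. Macrophage markers stood at 19.2 and 17.2 CPM, and 3 or more of 8 were seen in 1 late-cycle and 4 remaining cells. That 1 cell bears on 2 genes that differed between the parts, as Fcer1g stood at 20.1 CPM in the lowest and 0.472 in the highest part and C1qb at 16.3 and 0. Endothelial markers stood at 58.1 and 38.2 CPM, mostly from Cdh5. Markers of NK, B and dendritic cells, neutrophils, pericytes, keratinocytes and erythroid cells were each under 10 CPM in late-cycle cells. Leaving out the 5 cells with macrophage markers, an alternative chosen after seeing the data, kept the counts of 2-fold genes within 1.5 times.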

How the data were processed

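The data are 1 matrix of raw UMI counts per gene and hashtag, deposited by the authors for a pool of 18 tumors, with 93843218 gene UMIs in 20917 barcodes over 32285 genes and 10 hashtags. Counting was done with Cell Ranger 6.1.2 per the file headers, but with Cell Ranger 2.1.1 on GRCm38 per the submitters' processing notes, and which applies is not resolved. The filter behind the barcode list is not given in the sources used here. The members and lists were chosen with earlier results of these data known.

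Of 1856 barcodes with at least 5000 gene UMIs, 199 were left out for a mitochondrial share over 15% and 143 for the hashtag ratio, which leaves 1514 cells. No doublet caller was run. UMIs were summed over late-cycle cells (31487350 UMIs) and remaining cells (40077066 UMIs), scaled to CPM and compared with 5 CPM added, over genes with at least 5 CPM in all cells. A gene was higher or lower at a 2-fold ratio. The direction was counted in the 15 hashtag pairs with at least 10 cells on each side. There is 1 pooled sample, so no test was run. Intervals are exact (Clopper-Pearson) and cover counting error only. Thinning drew 20000 UMIs per cell with a fixed seed. Genes are named as the 5 defining genes, 12 late mitosis genes, the 20 highest and 15 lowest ratios of the same direction in all pairs or all but 1, and the leading genes of each list by level and ratio. Others, such as Wee1, were also named after their values were seen, which the text says for some of them only. Promoters come from a RefSeq table (GRCm38.p6), matched by symbol or older symbol. The scripts were tested on simulated counts. Tools were Python 3.11.15, numpy 2.4.6, scipy 1.17.1, pandas 2.3.3 and matplotlib 3.10.9. Alternatives changed the rule, the filters, the scaling, the CPM added and the cells, and the closing section gives their effect. A few genes are not reported here.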

Additional observations from a re-analysis of the deposited data

Results flagged for a closer look

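Barcodes that the filters left out also held late-cycle transcripts. Of the 199 barcodes with at least 5000 gene UMIs and over 15% mitochondrial UMIs, 103 (51.8%, exact 95% interval 44.6 to 58.9%) reached 5 UMIs of the defining genes per 10000. Their group had a median of 7106 gene UMIs and a median mitochondrial share of 25.7%, with 1029.6 CPM of the defining genes, 699 of the 12 late mitosis genes and 348 of histones. Of the 143 barcodes that missed only the hashtag ratio, 63 (44.1%, 35.8 to 52.6%) reached that level, with a median of 55213 gene UMIs, 770.03 CPM of the defining genes, 864 of the late mitosis genes and 680.2 of histones. Droplets with free RNA only stood at 6.32 of the defining UMIs per 10000, above that level as well. The share among the 1514 cells kept was 33.4%. What these barcodes are was not tested.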

How the results depend on the processing

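The share of late-cycle cells, 33.4%, was 39.2% at a threshold of 3 per 10000 and 21.1% (320 cells) at 10. It was 30.9% with a hashtag ratio of 10, 29.3% without Top2a and 30.98% without Ube2c, each at 4 per 10000. Genes 2-fold lower, 101, numbered 189 with 1 CPM added and 39 with 20. Genes 2-fold higher, 260, numbered 131 with 20 CPM added and 163 among genes of at least 20 CPM. The higher genes were 72.0% of those past 2-fold, 66.1% with CPM taken without mitochondrial and ribosomal genes, 63.5% with 1 CPM added and 77.1% with 20. The log2 ratio of licensing genes between the highest and lowest part, -1.38, was -1.10 with 2 parts. At a threshold of 10 the log2 ratio of late-cycle over remaining cells was 0.23 for licensing genes (0.79 at 5), 1.47 for histones (2.22) and 2.32 for passenger complex and cytokinesis genes (3.11, and 3.71 at a threshold of 3). No ratio of a named gene past 2-fold changed sign under the alternatives run. Rcn3 (-0.98) missed 2-fold with 20 CPM added. Depth limits genes under 5 CPM, 54 histone genes among them, and single hashtag pairs of 21 to 50 cells. Late-cycle and remaining cells were compared within hashtag pairs by values and directions only, with no test, since the same gene counts chose the cells.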
